A study of Arabidopsis thaliana with 16 samples.

Results

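The Aux/IAA and GH3 genes of Arabidopsis are the best known early response genes of the hormone auxin, and 35 of them were followed here: 29 Aux/IAA genes and the 6 genes GH3.1 to GH3.6. They were chosen by family from a list of gene identifiers. Aux/IAA proteins are short-lived repressors that sit on auxin response factors (ARFs) at target promoters. Auxin joins an Aux/IAA protein to a receptor of the TIR1/AFB family, the repressor is degraded, and the ARF is released; many Aux/IAA genes are themselves targets and so form a feedback loop. GH3.1 to GH3.6 are enzymes of the same feedback, which attach amino acids to indole-3-acetic acid and lower the free hormone.

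All libraries came from Col-0 seedlings (the Columbia reference strain, with no transgene named) grown in vitro for 15 days and sequenced as total RNA after depletion of ribosomal RNA, with the strand kept. Zeocin, a bleomycin-type drug that breaks DNA strands, was applied at 200 microg/ml over 3 h (5 libraries) and set against 5 mock libraries. UV-C light was given at 8 kJ/m2 (3 libraries) and set against a separate mock (3 libraries), with the time between exposure and harvest not given in the sources used here. The series was made to find long non-coding RNAs that act in the repair of DNA breaks, and no library was treated with auxin, so a response to the hormone itself was not measured.

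Reads had been counted by the authors over loci assembled afresh in each experiment, 20880 loci for zeocin and 22818 for UV-C. Total counts per library were 31185080 to 44536500 in the zeocin experiment and 27973871 to 37507136 in that of UV-C. Whole seedlings were used, so fewer cells of a type and less RNA per cell cannot be told apart. BRCA1, a DNA repair gene that served as a check of the treatments, went from 4.28 ± 0.28 to 576 ± 40.3 CPM (counts per 1000000 of the TMM-scaled library, SD, n = 5) with zeocin and from 4.98 ± 0.75 to 12.4 ± 0.53 CPM (n = 3) with UV-C. The 10 root markers tested (of 11 listed) moved with zeocin: 9 were lower, against 12.0% of all loci tested. Their median log2 fold change was -0.95. The summed level of the list was 233 to 298 CPM in mock against 98.2 to 123 CPM after zeocin. Of 7 green tissue markers tested with zeocin 0 were called, and their median log2 fold change was -0.25. With UV-C 2 of 7 root markers tested were lower, near the 30.9% of all loci tested that were lower. The median log2 fold change of these root markers was -0.57, against 0.00 for all loci. Their list summed to 37.3 to 60.2 CPM in mock and 24.8 to 37.95 CPM after UV-C, ranges that overlapped. Of 8 green tissue markers tested with UV-C 6 were lower, against 30.9% of all loci, and 2 were higher, against 33.6%. The sum of the green tissue markers went from 23470 to 25530 CPM in mock down to 17970 to 18810 CPM. Plastid loci took 44.2% to 46.8% of counts in the UV-C mock and 37.0% to 40.5% after UV-C. Flower markers summed to at most 0.715 CPM in any library. The part that tissue make-up has in the results was not tested.

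Of the 35 genes, 29 had a locus of their own in the zeocin table and 27 in the UV-C table. A filter on low counts left 25 for testing in each, which are not the same 25. In the zeocin table IAA6 (AT1G52830), IAA30 (AT3G62100), IAA31 (AT3G17600) and IAA33 (AT5G57420) had a locus below the filter, with group means of at most 0.2995 CPM. IAA15 (AT1G80390), IAA20 (AT2G46990), IAA32 (AT2G01200), IAA34 (AT1G15050) and GH3.4 (AT1G59500) had none, and IAA1 (AT4G14560) was held only in a locus shared with AT4G14570, which is therefore not read as IAA1. In the UV-C table IAA6 and IAA20 were below the filter and IAA5, IAA15, IAA30 to IAA34 and GH3.4 had no locus, while IAA1 had its own. A gene without a locus was not assembled in that experiment, which gives no level for it. None of the 35 genes had a 50-base stretch that recurred elsewhere in the genome in the same orientation. Copies in the opposite orientation were not counted, so reads shared with such copies were not checked.

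Within the Aux/IAA family most transcript came from a few genes, as the plot of levels per length shows. Per kilobase of exonic length, the 24 Aux/IAA genes with a locus in the zeocin table summed to 405 ± 57.2 CPM per kb in mock (SD, n = 5) and 377 ± 45.2 after zeocin, ranges that overlapped. IAA9 (AT5G65670) stood highest in that mock, at 103 CPM per kb, followed by IAA7 (AT3G23050) at 66.4 and IAA16 (AT3G04730) at 59.3; the ranges of IAA7 and IAA16 overlapped and that of IAA9 lay above both. Together with IAA2 (AT3G23030) they made up 63.1% ± 2.9 of the family sum. In the UV-C mock IAA16 led with 83.5 CPM per kb, ahead of IAA9 with 63.3, and the 22 genes summed to 408 ± 17.8 CPM per kb (SD, n = 3). After UV-C the sum was 299.5 ± 3.14, and the highest UV-C library (303 CPM per kb) lay below the lowest mock (395). The 2 experiments hold different gene sets and were assembled separately, so their sums are not compared.

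**Figure D1:**
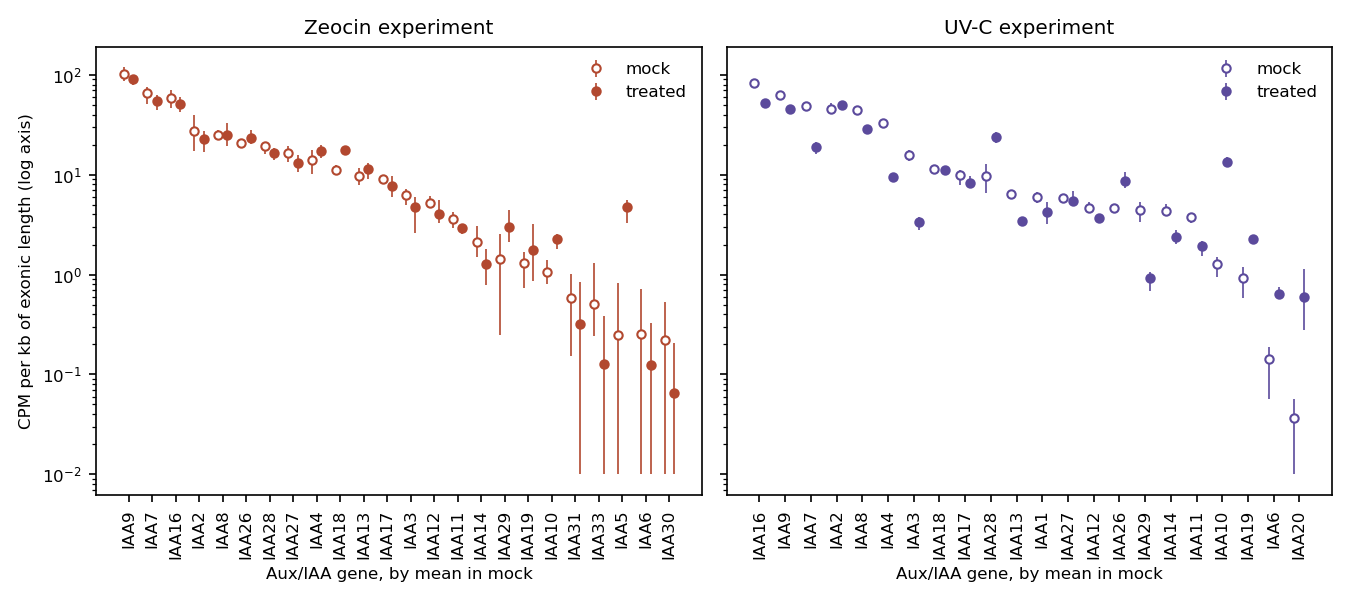
Level of each Aux/IAA gene per kilobase of exonic length (CPM per kb, log axis), zeocin experiment on the left (n = 5 and 5) and UV-C experiment on the right (n = 3 and 3). Points are group means, open for mock and filled for treated, bars run from the lowest to the highest library, and a bar that reaches the lower edge of 0.01 stands for a library with 0 counts; IAA10 after UV-C rises from 1.28 to 13.6 CPM per kb while IAA3, IAA4, IAA7 and IAA29 sit below their mock.

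The part of an Aux/IAA protein that the receptor grips is the degron in its domain II, a short run of residues around a core of glycine, tryptophan and a pair of prolines. Reading the annotated proteins (RefSeq, TAIR10.1), 17 of the 29 held the full core with its closing valine, 6 held the core without that residue (IAA8, IAA10, IAA11, IAA12, IAA13 and IAA27), and 6 held none (IAA20 and IAA30 to IAA34). An exact match to the core was asked for, so a core with a changed residue was counted as none. Of the 6 without an exact core, 3 had a locus in the zeocin table and 1 in the UV-C table, all below the filter. Their highest group means were 0.2995 CPM in the zeocin mock and 0.302 CPM after UV-C. The others had no locus and so no level. The highest mean among the genes with a full core was 162 CPM, but not all of these were high. IAA6, which has a full core, was below the filter in both tables, with 0.14 CPM in the zeocin mock and 0.07 CPM in the UV-C mock. IAA15, also with a full core, had no locus in either. The coding stretches below, 39 bases each with the codons of the core in capitals, are shown for genes whose levels went in opposite directions. They lie at chr1:5366266-5366304 (minus strand, IAA5), chr1:1060328-1060366 (plus, IAA10), chr5:9033812-9033850 (plus, IAA28), chr1:1129010-1129048 (minus, IAA3), chr5:17550740-17550778 (plus, IAA4) and chr4:15583942-15583980 (plus, IAA29).
IAA5: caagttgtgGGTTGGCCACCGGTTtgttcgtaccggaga
IAA10: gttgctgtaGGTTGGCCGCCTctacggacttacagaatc
IAA28: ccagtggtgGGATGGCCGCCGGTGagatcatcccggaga
IAA3: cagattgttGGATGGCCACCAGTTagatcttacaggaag
IAA4: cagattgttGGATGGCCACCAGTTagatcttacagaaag
IAA29: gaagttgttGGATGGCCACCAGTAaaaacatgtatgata
In IAA10 the capitals stop after the paired prolines, where the other genes shown carry a valine codon. IAA3 and IAA4, which both fell after UV-C, have the same core codons, and IAA28, which rose, has a full core as well. The core was thus found in genes that went up and in genes that went down.

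Zeocin moved few of these genes. Of the 25 tested, 3 were higher after zeocin, where 15.0% of all 19447 loci tested were higher, and 4 were lower, against 12.0% of all loci, with an adjusted p below 0.05 (edgeR quasi-likelihood test, Benjamini-Hochberg over all loci, two-sided). Both counts are near what those shares give for 25 genes. The 3 that rose were the Aux/IAA genes IAA5, IAA10 and IAA18, and the 4 that fell were IAA14, GH3.1, GH3.2 and GH3.5. The other 18 did not pass the test. Without zeocin replicate 2, 3 or 5 or mock replicate 2 or 5 only 2 genes were lower, and without mock replicate 5 there were 5 higher. The median log2 fold change of the 25 was -0.23 against -0.02 for all loci, with 17 values below 0 and 8 above. As the labels do not say whether replicates came from separate cultures, these p-values measure the spread between the samples, which may be technical.

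**Figure D2:**
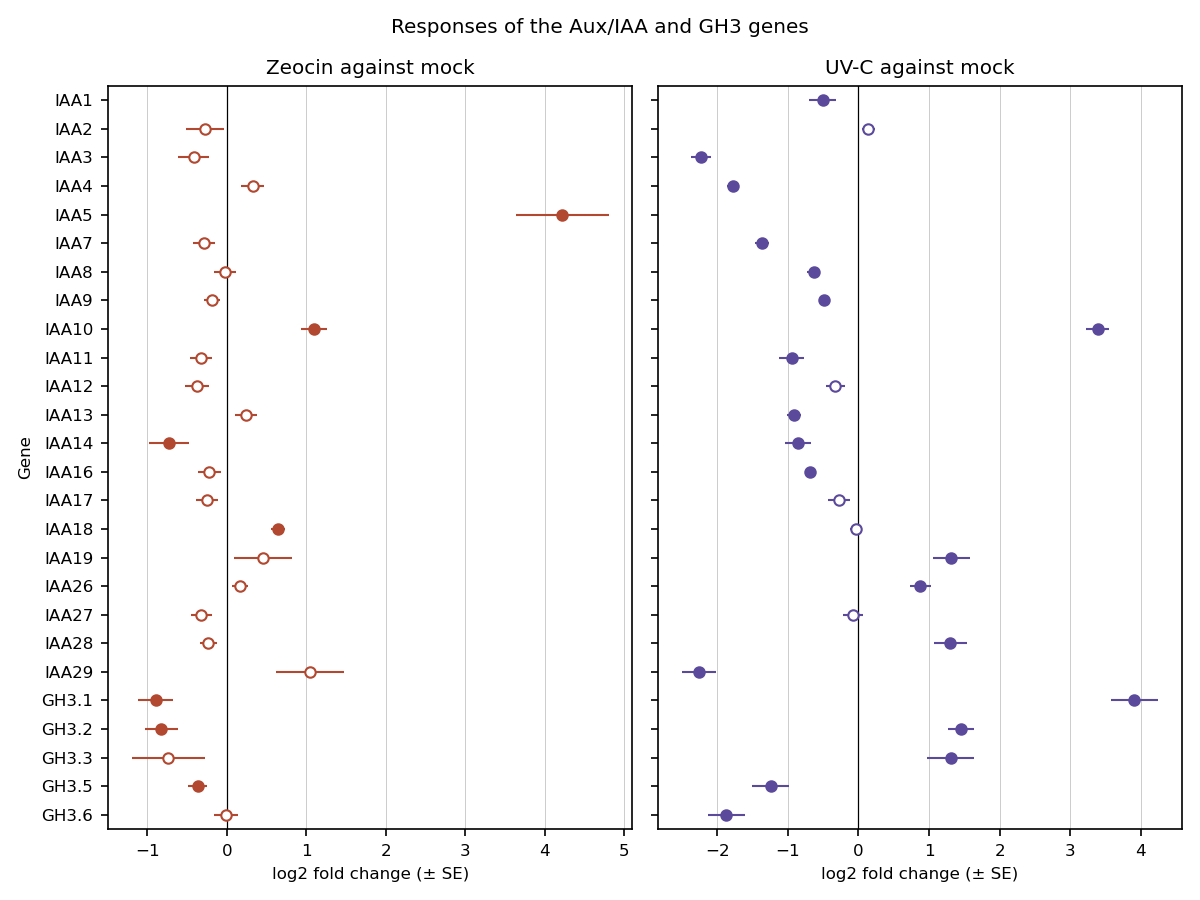
Log2 fold change (± SE) against mock of each gene tested, zeocin on the left (n = 5 and 5) and UV-C on the right (n = 3 and 3). Filled points have an adjusted p below 0.05 and open points do not; with zeocin IAA5 stands apart at 4.22, and with UV-C GH3.1 (3.91) and IAA10 (3.39) lie at the right and IAA3 and IAA29 at the left.

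IAA5 (AT1G15580), an early auxin-induced repressor that is also a known target of drought-related DREB2 factors, showed the widest change with zeocin. Its mock libraries held 0.0861, 0.158, 0.616, 0 and 0.0692 CPM and its zeocin libraries 3.96, 3.43, 2.42, 4.13 and 3.72 CPM. The groups did not overlap, and the mock level rested on 36 fragments in all against 656 after zeocin. The fold change was 18.6 (log2 fold change 4.22 ± 0.58 SE, edgeR adjusted p = 0.000208). Mock replicate 3 alone carried 25 of those 36 fragments, and without it the log2 fold change was 5.54. IAA5 had no locus in the UV-C assembly, so its response to UV-C was not measured.

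The 250 bases before the IAA5 start (chr1:5366498-5366747, minus strand, RefSeq TAIR10.1) and before that of its close relative IAA19 (chr3:5263751-5264000, plus strand) are shown because both hold 3 copies of the hexamers known to bind ARFs, TGTCTC or TGTCGG on either strand, here in capitals.
IAA5: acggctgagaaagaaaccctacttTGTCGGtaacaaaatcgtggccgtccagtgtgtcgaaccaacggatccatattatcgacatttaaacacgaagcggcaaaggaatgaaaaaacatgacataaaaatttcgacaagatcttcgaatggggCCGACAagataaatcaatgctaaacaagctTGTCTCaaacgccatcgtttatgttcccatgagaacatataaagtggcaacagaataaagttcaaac
IAA19: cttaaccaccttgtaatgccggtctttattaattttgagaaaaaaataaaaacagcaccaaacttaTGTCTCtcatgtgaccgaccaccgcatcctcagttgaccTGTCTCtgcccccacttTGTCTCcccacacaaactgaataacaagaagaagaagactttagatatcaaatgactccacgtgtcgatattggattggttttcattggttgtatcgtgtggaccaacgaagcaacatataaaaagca
In IAA5 they start at -226, -97 and -67 from the gene start, and in IAA19 at -184, -145 and -128. IAA19 rose with UV-C but did not pass the test with zeocin (log2 fold change 0.45 ± 0.37 SE, edgeR adjusted p = 0.396). Among the other genes that rose with either treatment, IAA10, IAA18, IAA26, IAA28 and GH3.1 held neither hexamer, and GH3.2 and GH3.3 held 1 each. Genes that fell with UV-C held them too, IAA1 with 2 copies and IAA8, IAA13, IAA16 and GH3.5 with 1 each. The others that fell with UV-C, IAA3, IAA4, IAA7, IAA9, IAA11, IAA14, IAA29 and GH3.6, held neither. A link between these hexamers and the responses was not tested. Over all 35 genes, TGTCTC was found in 12 windows (34.3%) against 10.95% of the 27443 gene windows of the genome, and TGTCGG in 6 (17.1%) against 4.16%. The G-box CACGTG, which is bound by PIF and other factors, was in 5 (14.3%, genome 6.49%) and overlaps neither hexamer. The W-boxes TTGACC and TTGACT, sites of WRKY factors, were in 8 (22.9%, genome 12.18%) and 5 (14.3%, genome 19.07%). The palindrome bound by SOG1, the plant regulator of the DNA damage response (CTT, 7 free bases, AAG), was in 2, IAA10 and GH3.6 (5.7%, genome 9.71%). The IAA10 window overlaps the annotated end of the gene before it, AT1G04090. Such a match describes the letters of the window and no binding was measured.

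IAA10 (AT1G04100), a repressor whose degron lacks the closing valine, stood at 2.27, 3.16, 2.56, 2.95 and 3.9 CPM in the mock libraries and 5.06, 5.82, 6.73, 7.11 and 7.09 CPM after zeocin. Every zeocin library was above every mock library, and the fold change was 2.14 (log2 fold change 1.1 ± 0.16 SE, edgeR adjusted p = 0.000168). This locus ran on past the annotated gene, antisense to its neighbour SDD1, and only 46.1% of its exonic bases were IAA10. Transcript of IAA10 and of the stretch after it cannot be told apart in that table. IAA18 (AT1G51950), a repressor known from lateral root and embryo patterning, had 15.8, 18.4, 15.5, 15.2 and 18.1 CPM in mock and 23.6, 27.8, 26.95, 26.8 and 24.5 CPM after zeocin. Its groups did not overlap either, and its rise was smaller but even across libraries (1.56-fold, log2 fold change 0.64 ± 0.09 SE, edgeR adjusted p = 6.64e-05).

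Among the genes that fell, IAA14 (AT4G14550), the SOLITARY-ROOT repressor of lateral root initiation, had 2.07, 2.81, 3.47, 2.05 and 4.13 CPM in mock and 2.46, 1.89, 1.76, 1.06 and 1.58 CPM after zeocin. The groups overlapped and the call was a close one (log2 fold change -0.73 ± 0.25 SE, edgeR adjusted p = 0.0445). It was lost on leaving out zeocin replicate 2, 3, 4 or 5 or mock replicate 2, 3 or 5 (edgeR adjusted p 0.0666 to 0.1297). Root markers, of which 9 of 10 were lower against 12.0% of all loci, went down with it.

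Of the 5 GH3 genes tested 3 fell after zeocin, where 12.0% of all loci were lower, and none rose. GH3.1 (AT2G14960) had 1.46, 1.83, 1.995, 2.05 and 2.08 CPM in mock and 0.925, 1.401, 0.906, 0.893 and 0.9303 CPM after zeocin, with no overlap (log2 fold change -0.89 ± 0.22 SE, edgeR adjusted p = 0.00692). GH3.2 (AT4G37390), known from the activation mutant ydk1, had 8.07, 7.68, 6.85, 9.41 and 8.61 CPM in mock and 3.12, 3.46, 4.87, 4.03 and 7.44 CPM after zeocin. One zeocin library reached into the mock range, and the fall was 1.77-fold (log2 fold change -0.82 ± 0.20 SE, edgeR adjusted p = 0.00808). GH3.5 (AT4G27260), an enzyme that also acts on salicylic acid, had 21.8, 27.5, 22.8, 23.2 and 34.6 CPM in mock and 20.8, 18.4, 18.8, 22.95 and 19.9 CPM after zeocin. Those ranges overlapped and the fall was slight (log2 fold change -0.37 ± 0.12 SE, edgeR adjusted p = 0.0391). Its call was lost on leaving out zeocin replicate 2, 3 or 5 or mock replicate 2 or 5 (edgeR adjusted p 0.0791 to 0.1103). GH3.3 (AT2G23170) was too variable for a call (15.2 ± 6.87 against 9.14 ± 5.37 CPM, SD, n = 5; log2 fold change -0.74 ± 0.46 SE, edgeR adjusted p = 0.279), and GH3.6 (AT5G54510) differed by less than the spread between replicates (28.9 ± 7.46 against 28.6 ± 2.73 CPM), with a sign that turned in 6 of 18 other settings.

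The genes that did not pass the test with zeocin included the most abundant ones. IAA9 had a mean of 162 ± 20.5 CPM in mock and 143 ± 13.8 after zeocin (SD, n = 5), IAA7 77.9 ± 15.2 and 63.8 ± 9.66, and IAA16 76.1 ± 14.8 and 65.3 ± 11.2, all with overlapping groups. IAA29 (AT4G32280), a target of PIF factors in shade and warmth, came nearest to a call. Its mock libraries held 1.58, 0.9797, 0.222, 1.37 and 2.28 CPM and its zeocin libraries 2.86, 1.94, 1.91, 3.94 and 2.79 CPM, which overlapped (log2 fold change 1.05 ± 0.43 SE, edgeR adjusted p = 0.0898). DESeq2 called it higher (adjusted p = 0.0355), as did edgeR without mock replicate 5 (adjusted p = 0.0355).

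UV-C moved most of the family. Of the 25 genes tested 7 were higher, against 33.6% of all 19587 loci tested, and 13 were lower, against 30.9% of all loci; 5 did not pass the test. The median log2 fold change was -0.49, and 0.00 for all loci. The 7 that rose were IAA10, IAA19, IAA26, IAA28, GH3.1, GH3.2 and GH3.3. The 13 that fell were IAA1, IAA3, IAA4, IAA7, IAA8, IAA9, IAA11, IAA13, IAA14, IAA16, IAA29, GH3.5 and GH3.6. Changes after UV-C were widespread in the whole table, so the share called says little by itself. The share of all loci without overlap between groups was not computed. A lack of overlap is therefore given only as a description of each gene. Sizes and directions are given below by subfamily. Green tissue markers and the plastid share went down in the same libraries, as given above.

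**Figure D3:**
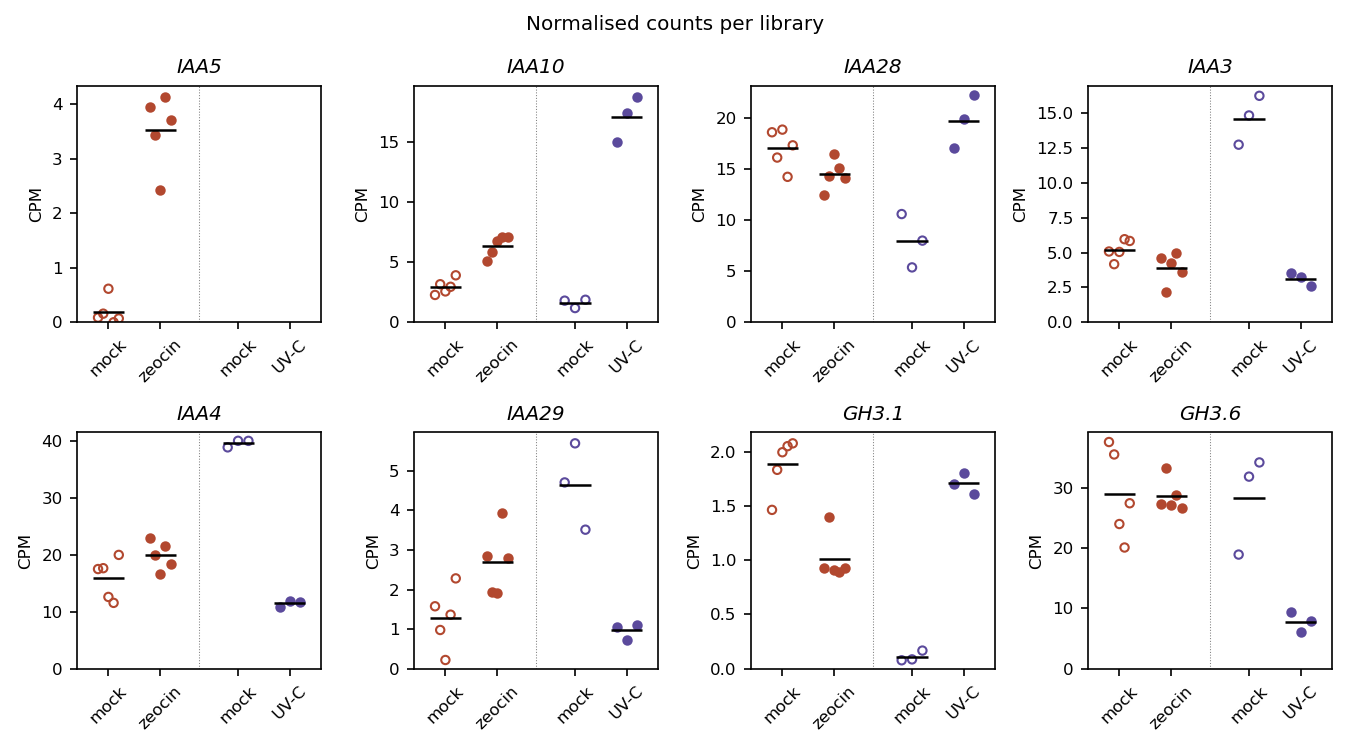
Counts per 1000000 (CPM) in each library for 8 genes, zeocin experiment in red and UV-C experiment in purple, open circles for mock and filled for treated; the black line is the group mean (n = 5 in each zeocin group, n = 3 in each UV-C group) and each axis starts at 0. IAA5 has no UV-C points because it had no locus there, and the 3 UV-C libraries of IAA10 lie at 14.95 to 18.75 CPM, above all mock libraries.

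The steepest falls among the repressors were those of IAA3, IAA4 and IAA29. IAA3 (AT1G04240, SHY2), which limits root meristem size, had 12.8, 14.8 and 16.3 CPM in mock and 3.52, 3.27 and 2.57 CPM after UV-C, a 4.67-fold fall (log2 fold change -2.22 ± 0.14 SE, edgeR adjusted p = 3.62e-07). Its close relative IAA4 (AT5G43700) had 38.8, 39.96 and 39.95 CPM and 10.8, 11.9 and 11.8 CPM, 3.44-fold lower (log2 fold change -1.78 ± 0.07 SE, edgeR adjusted p = 1.75e-08). For both genes the mock libraries all lay well above the UV-C ones. IAA29 had 4.71, 5.697 and 3.52 CPM in mock and 1.06, 0.7301 and 1.11 CPM after UV-C, 4.799-fold lower with no overlap (log2 fold change -2.26 ± 0.24 SE, edgeR adjusted p = 1.65e-05). IAA1 (AXR5 in mutants), of the same subfamily as IAA3 and IAA4, had 4.16, 4.69 and 5.41 CPM and 4.28, 3.198 and 2.57 CPM. Its groups overlapped, and its call (log2 fold change -0.50 ± 0.19 SE, edgeR adjusted p = 0.0397) was lost with DESeq2 (adjusted p = 0.052) and on leaving out replicate 2 or 3 of either group (edgeR adjusted p 0.0549 to 0.1415). IAA2 alone of that subfamily had a value above 0 (47.7 ± 6.14 against 52.7 ± 3.48 CPM, SD, n = 3; log2 fold change 0.14 ± 0.10 SE, edgeR adjusted p = 0.224).

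In the subfamily of IAA7, IAA14, IAA16 and IAA17, 3 of 4 genes fell, where 30.9% of all loci were lower. IAA7 (AXR2), whose stabilised form makes plants auxin resistant, had 58.9, 58.4 and 61.2 CPM in mock and 25.6, 19.4 and 24.05 CPM after UV-C (log2 fold change -1.37 ± 0.10 SE, edgeR adjusted p = 9.85e-07). IAA14 had 3.56, 3.65 and 4.74 CPM in mock and 2.57, 1.88 and 2.19 CPM after UV-C (log2 fold change -0.85 ± 0.18 SE, edgeR adjusted p = 0.00228). Neither gene had overlapping groups. IAA16, the most abundant family member in this mock, had 106, 102 and 110.3 CPM and 69.6, 63.3 and 66.1 CPM, a smaller fall (log2 fold change -0.68 ± 0.07 SE, edgeR adjusted p = 1.41e-05). IAA17 (AT1G04250, AXR3) overlapped between groups and did not pass the test (11.1 ± 2.12 against 9.21 ± 1.43 CPM, SD, n = 3; log2 fold change -0.27 ± 0.16 SE, edgeR adjusted p = 0.165).

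The long repressors IAA8 (AT2G22670) and IAA9 fell slightly, and the third of that subfamily, IAA27 (AT4G29080), did not pass the test. IAA8 had 60.6, 66.6 and 66 CPM in mock and 43.6, 44.3 and 36.6 CPM after UV-C (log2 fold change -0.63 ± 0.09 SE, edgeR adjusted p = 0.0001104). IAA9, whose tomato counterpart controls fruit set, had 100.1, 96.2 and 107 CPM and 69.2, 72.5 and 74.4 CPM (log2 fold change -0.49 ± 0.07 SE, edgeR adjusted p = 0.000154). Both had no overlap between groups, although neither fell by as much as 1.6-fold. IAA27 had 7.74 ± 0.11 CPM in mock and 7.33 ± 1.6 after UV-C.

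IAA10 and its relatives IAA11 to IAA13 went in opposite directions. IAA10 had 1.795, 1.18 and 1.87 CPM in mock and 14.95, 17.4 and 18.8 CPM after UV-C, a 10.5-fold rise (log2 fold change 3.39 ± 0.16 SE, edgeR adjusted p = 4.86e-08). The UV-C locus held IAA10 alone, and its share of the Aux/IAA sum per length went from 0.313% to 4.52%, from rank 19 to rank 7. IAA11 (AT4G28640) had 3.77, 4.603 and 4.41 CPM and 2.46, 1.74 and 2.46 CPM (log2 fold change -0.94 ± 0.18 SE, edgeR adjusted p = 0.000927). IAA13 (AT2G33310) had 9.42, 9.24 and 9.18 CPM and 4.996, 4.73 and 5.15 CPM (log2 fold change -0.90 ± 0.10 SE, edgeR adjusted p = 1.95e-05). Both fell with no overlap. IAA12 (AT1G04550, BODENLOS) missed the threshold (log2 fold change -0.32 ± 0.14 SE, edgeR adjusted p = 0.0599), although its groups did not overlap either. It was called lower with upper quartile scaling (edgeR adjusted p = 0.0178) and without UV-C mock replicate 3 (edgeR adjusted p = 0.031).

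The other Aux/IAA genes that rose were IAA19, IAA26 and IAA28. IAA19 (AT3G15540, MSG2), which acts in hypocotyl bending, had 0.546, 0.921 and 1.12 CPM in mock and 2.08, 2.22 and 2.11 CPM after UV-C (log2 fold change 1.32 ± 0.26 SE, edgeR adjusted p = 0.00133). IAA28 (AT5G25890), known for blocking lateral roots when stabilised, had 10.6, 5.38 and 8.01 CPM and 17.1, 19.96 and 22.3 CPM (log2 fold change 1.3 ± 0.23 SE, edgeR adjusted p = 0.00196). IAA26 (AT3G16500), first found as a partner of phytochrome, had 7.96, 8.89 and 8.82 CPM and 19.7, 13.6 and 13.9 CPM (log2 fold change 0.88 ± 0.14 SE, edgeR adjusted p = 0.000441). In all of them the lowest UV-C library was above the highest mock. IAA18, of the same subfamily as IAA26 and IAA28, was flat at 16.7 ± 0.44 CPM in mock and 16.3 ± 1.06 after UV-C. IAA6 and IAA20 were too low to be tested: IAA6 had 7 fragments over the mock libraries and 24 over the UV-C libraries, and IAA20 had 2 and 24.

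The GH3 genes split. GH3.1 was nearly silent in this mock, with 0.07804, 0.0863 and 0.167 CPM from 12 fragments in all, and reached 1.703, 1.81 and 1.61 CPM after UV-C, a 15.02-fold rise (log2 fold change 3.91 ± 0.34 SE, edgeR adjusted p = 3.52e-06). GH3.2 had 4.06, 3.395 and 5.802 CPM in mock and 11.1, 11.8 and 13.4 CPM after UV-C (log2 fold change 1.45 ± 0.18 SE, edgeR adjusted p = 7.99e-05). GH3.3 had 2.34, 4.805 and 6.304 CPM and 13.4, 9.7 and 10.06 CPM (log2 fold change 1.31 ± 0.33 SE, edgeR adjusted p = 0.0101). These 3 of the 5 GH3 genes tested rose, where 33.6% of all loci were higher, each without overlap. GH3.5 had 13.7, 18.8 and 25.4 CPM and 10.3, 6.397 and 7.72 CPM, a fall (log2 fold change -1.24 ± 0.26 SE, edgeR adjusted p = 0.00472). GH3.6, known from the dwarf mutant dfl1, had 18.9, 31.8 and 34.2 CPM and 9.35, 6.01 and 7.88 CPM, 3.66-fold lower (log2 fold change -1.87 ± 0.26 SE, edgeR adjusted p = 0.000557). In mock GH3.5 and GH3.6 together made up 83.2% ± 1.64 of the GH3 sum per length. After UV-C GH3.2 and GH3.3 led with 58.9% ± 3.35, and the sum went from 26.4 ± 7.71 to 19.4 ± 2.44 CPM per kb (SD, n = 3), ranges that overlapped.

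Of these families some genes are neighbours. IAA3 and IAA17 lie head to head 6388 bases apart on chromosome 1, IAA2 and IAA7 12510 bases apart on chromosome 3, and IAA14 and IAA1 10732 bases apart on chromosome 4, with no protein-coding gene between. After UV-C IAA3 fell while IAA17 did not pass the test, and IAA7 fell while IAA2 did not pass it; IAA14 and IAA1 both fell. The difference between neighbours was not tested.

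To ask which genes answered the treatments differently, both experiments were fitted together over 17205 genes and the difference of the responses, zeocin minus UV-C, was tested. Of the 25 genes in that fit, 10 had a response higher after zeocin than after UV-C, against 23.8% of all genes, and 6 had one lower after zeocin, against 23.4%. The experiments differ in assembly, dose, duration and mock, which cannot be told apart from the kind of damage. The mocks themselves had different levels. Root markers summed to 233 to 298 CPM in the zeocin mock, over 11 loci, and to 37.3 to 60.2 CPM in the UV-C mock, over 10. GH3.1 had means of 1.88 and 0.11 CPM in these mocks. The part that such starting levels have in the differences was not tested. GH3.1 differed most, lower with zeocin and higher with UV-C (-4.79 ± 0.39 SE, edgeR adjusted p = 4.77e-08). GH3.2 did the same (-2.24 ± 0.32 SE, edgeR adjusted p = 2.65e-05), and GH3.3 was also lower after zeocin than after UV-C (-2.01 ± 0.69 SE, edgeR adjusted p = 0.02702). On the other side IAA29 (3.35 ± 0.63 SE, edgeR adjusted p = 0.000411), IAA4 (2.15 ± 0.21 SE, edgeR adjusted p = 4.47e-07), GH3.6 (1.89 ± 0.31 SE, edgeR adjusted p = 0.000133) and IAA3 (1.84 ± 0.29 SE, edgeR adjusted p = 6.72e-05) fell with UV-C and did not pass the test with zeocin. IAA18, which rose only with zeocin by the calls, also passed the test of the difference (0.71 ± 0.12 SE, edgeR adjusted p = 0.000167). The call of GH3.3 was lost without UV-C replicate 1 or UV-C mock replicate 1 or 2 (edgeR adjusted p 0.0526 to 0.0747). That of IAA11 (0.66) was lost without replicate 2 of either UV-C group (edgeR adjusted p 0.0636 and 0.0855), and that of IAA8 (0.65) without UV-C replicate 3 (0.0598).

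Of the 24 genes tested in both experiments IAA10 was the only one called higher in both, and GH3.5 and IAA14 were called lower in both. IAA10 rose more with UV-C (-2.26 ± 0.25 SE, edgeR adjusted p = 1.57e-06), but its locus in the zeocin table holds more than the gene. GH3.5 fell less with zeocin (0.91 ± 0.27 SE, edgeR adjusted p = 0.0112), while for IAA14 the difference did not pass (0.15 ± 0.37 SE, edgeR adjusted p = 0.759). IAA2, IAA12, IAA17 and IAA27 were called in neither. Across the 24 genes the responses had a Pearson correlation of -0.09 and a Spearman correlation of -0.12. The points share their libraries within each experiment, so this is a description.

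**Figure D4:**
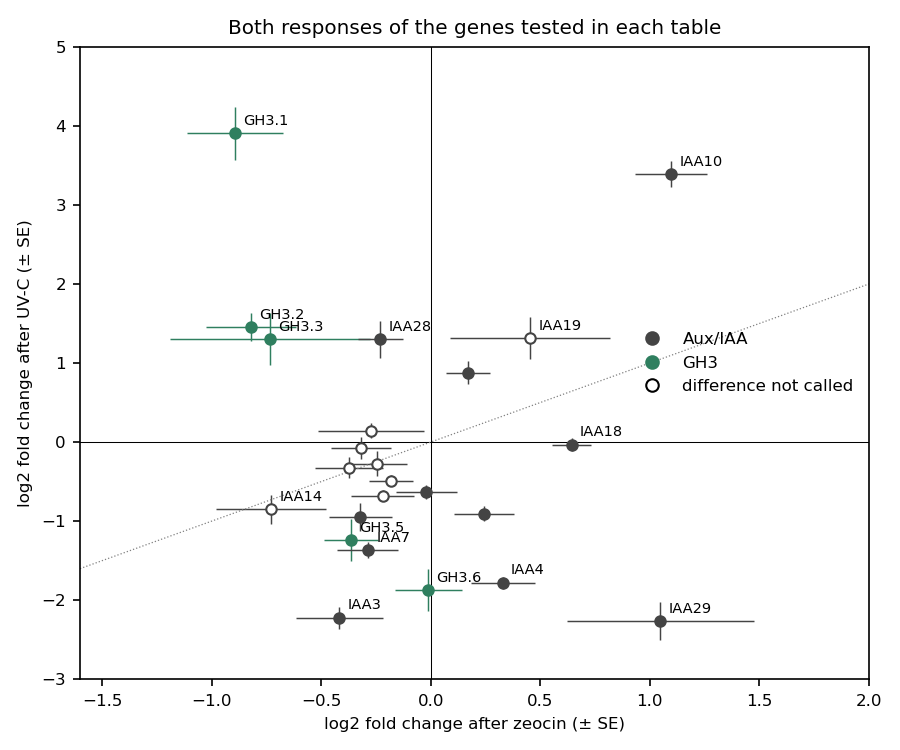
Log2 fold change after zeocin (horizontal) against that after UV-C (vertical), ± SE, for the 24 genes tested in both experiments, with Aux/IAA genes in grey and GH3 genes in green; the dotted line marks equal responses. Filled points passed the test of the difference between responses, and GH3.1 and IAA10, the highest after UV-C, lie on opposite sides of 0 for zeocin.

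The rest of the auxin pathway was read from lists of genes by role. The counts of each list stand beside shares over all loci of 15.0% higher and 12.0% lower with zeocin and 33.6% higher and 30.9% lower with UV-C. Genes are named from among those called with the widest change that had at least 1 CPM in 1 group and a locus over 50% of the gene. Of the auxin receptors, which are all named, 2 of 6 were lower with zeocin, against 12.0% of all loci, and none was higher. TIR1, the founding member of the receptor family, had 62.5 ± 11.2 CPM in mock and 50.5 ± 8.41 after zeocin (SD, n = 5) and did not pass the test. AFB1 fell by 0.48 on the log2 scale (SE 0.12, edgeR adjusted p = 0.00665) and AFB5 by 0.27 (SE 0.08, adjusted p = 0.0261). AFB2, AFB3 and AFB4 did not pass it, with values of 0.02, -0.14 and 0.07. With UV-C 4 of 5 receptors were lower, against 30.9% of all loci, and 1 was higher. TIR1 fell by 0.75 (SE 0.07, edgeR adjusted p = 8.73e-06), AFB5 by 1.13 (SE 0.07, adjusted p = 3.64e-07), AFB1 by 0.69 (SE 0.13, adjusted p = 0.000968) and AFB3 by 0.24 (SE 0.08, adjusted p = 0.0246). AFB2 rose by 0.24 (SE 0.09, adjusted p = 0.0384), and AFB4 had no locus of its own there.

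Of the ARFs, the factors that Aux/IAA proteins repress, 5 of 15 were lower with zeocin, against 12.0% of all loci, and 1 was higher, against 15.0%. Those named were ARF18 (-0.54 ± 0.15), ARF3 (-0.45 ± 0.14) and ARF10 (-0.39 ± 0.09), all lower on the log2 scale (± SE). With UV-C 8 of 14 were lower, against 30.9% of all loci, and 1 was higher, against 33.6%; the fallen ones included ARF16 (-1.04 ± 0.17), ARF18 (-1.02 ± 0.21) and ARF17 (-0.93 ± 0.17).

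Auxin synthesis genes fell together with zeocin: 8 of 9 tested were lower, against 12.0% of all loci, and none was higher. Their median log2 fold change was -0.91 against -0.02 for all loci. They included the aminotransferase gene TAR2 (5.08 ± 0.97 to 2.47 ± 0.28 CPM, SD, n = 5; log2 fold change -1.04 ± 0.16) and the flavin monooxygenase genes YUC3 (-1.29 ± 0.31) and YUC5 (-1.10 ± 0.27). Root markers fell by a like median (-0.95) in the same libraries. With UV-C 1 of 6 synthesis genes tested was lower and 2 were higher, against 30.9% and 33.6% of all loci, the higher count being near its share. TAA1 was the lower one (-1.17 ± 0.21) and YUC8 (0.85 ± 0.23) was among the higher ones. Of the transport genes 6 of 13 were lower and 2 higher with zeocin, against 12.0% and 15.0% of all loci. The efflux carrier gene PIN3 (-0.98 ± 0.24) fell and the transporter gene ABCB1 rose (1.06 ± 0.09). With UV-C 6 of 13 were lower and 4 higher, against 30.9% and 33.6% of all loci, the higher count being near its share. The influx carrier gene LAX1 was down (-1.75 ± 0.11) and ABCB4 (3.7 ± 0.13) and the kinase gene PID (2.91 ± 0.15) were up.

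Of the genes that conjugate, release or break down auxin 7 of 13 were higher with UV-C, against 33.6% of all loci. Another 2 were lower, against 30.9%. The summed level of the list went from 56.9 to 70.1 CPM in mock up to 235 to 263 CPM. Most of that rise lay in IAR3, and the median log2 fold change of the 13 was 0.475 against 0.00 for all loci. The amidohydrolase genes IAR3 (10.9 ± 1.98 to 152 ± 8.82 CPM, SD, n = 3; log2 fold change 3.8 ± 0.13) and ILL6 (3.3 ± 0.13) act in the direction opposite to GH3 enzymes and cleave amino acid conjugates of auxin or jasmonate. UGT84B1, which attaches glucose to auxin, had 0 fragments over the mock libraries and 94 over those of UV-C, at least 42.1-fold higher against a floor of 3 fragments over the group. With zeocin 3 of 12 were higher and 2 lower, against 15.0% and 12.0% of all loci. IAR3 was higher (0.52 ± 0.11) and UGT74D1 (-1.15 ± 0.13) and IAMT1 (-1.12 ± 0.24) were lower.

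Of 3 other GH3 enzymes, 2 were lower with zeocin, against 12.0% of all loci, and none was higher. The lower ones were GH3.10 (-0.77 ± 0.14), known from light responses, and JAR1 (-0.26 ± 0.08), which activates jasmonate. With UV-C 2 of 3 were lower and 1 was higher, against 30.9% and 33.6% of all loci. With UV-C the same pair fell (GH3.10 -0.80 ± 0.15, JAR1 -0.35 ± 0.08), and PBS3, an enzyme of salicylic acid synthesis, rose from 0.622 ± 0.35 to 40.3 ± 5.82 CPM (SD, n = 3; log2 fold change 5.99 ± 0.29). SAUR genes, small auxin-induced genes of cell growth, were lower in 8 of 25 with zeocin, against 12.0% of all loci, and higher in none. The lower ones included SAUR32 (-1.57 ± 0.13), SAUR50 (-1.10 ± 0.18) and SAUR16 (-0.96 ± 0.27). With UV-C 8 of 21 were lower and 4 higher, against 30.9% and 33.6% of all loci. SAUR66 (-2.32 ± 0.23) and SAUR50 (-2.04 ± 0.14) were down and SAUR53 (2.28 ± 0.26) was up. Close copies among SAUR genes were not checked for shared reads. Of other auxin-induced genes 5 of 10 were lower and 1 higher with zeocin, against 12.0% and 15.0% of all loci. LBD16 (-1.83 ± 0.32) and PUCHI (-1.40 ± 0.43), both of lateral root formation, fell and PBP1, a calcium-binding partner of PID, rose (1.32 ± 0.22). With UV-C 3 of 9 were higher and 2 lower, near the 33.6% and 30.9% of all loci. PBP1 (3.88 ± 0.15) and LRP1 (2.07 ± 0.23) were up and HAT2 (-1.24 ± 0.12) was down.

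**Figure D5:**
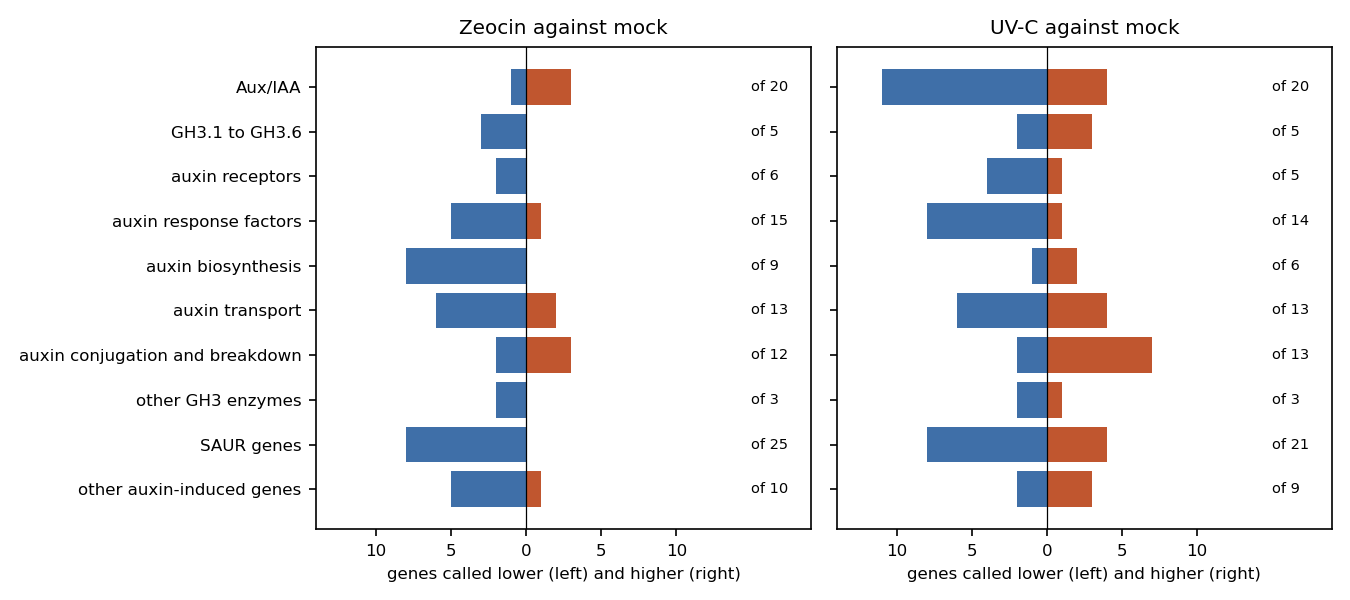
Number of genes called lower (blue, to the left) and higher (red, to the right) in each family or list of the auxin pathway, zeocin on the left and UV-C on the right, with the number tested at the right edge. With zeocin the synthesis list stands at 8 lower of 9 and with UV-C the Aux/IAA genes at 11 lower and 4 higher of 20.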

How the data were processed

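RNA was measured in 16 libraries, grouped by their titles into zeocin and its mock (5 and 5) and UV-C and its mock (3 and 3). Trim Galore 0.11.8, STAR 2.7.1a and the build TAIR10 are named in the submitters' processing notes. Per the file headers, the authors assembled loci with StringTie 2.1.5 in each experiment and deposited raw counts of fragments per locus made with featureCounts (Subread 2.0.1). The assemblies deposited by the authors also carry a StringTie score, which went into no value; their exons placed the loci, and the deposited locus lengths gave levels per kilobase.

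A locus was given a TAIR10.1 gene when their exons overlapped on the same strand by at least 50% of either. Loci of several genes were named for none, and the longest overlap stood for a gene. Of the introns of nuclear loci 97.0% (zeocin) and 99.2% (UV-C) matched an annotated intron. Counts were filtered with filterByExpr, scaled by TMM and tested with the quasi-likelihood test of edgeR 4.0.16 (R 4.3.3) over all loci, with an adjusted p below 0.05 (Benjamini-Hochberg). The SE of an edgeR value was worked back from its test, as the absolute log2 fold change divided by the square root of the quasi-likelihood F. CPM are counts per 1000000 of the TMM-scaled library. A joint fit over genes held in both tables tested the difference between responses. The code was tested on simulated data. DESeq2 1.42.0 and other scalings, filters, overlaps, a replicate block and leaving out each library were tried as alternatives. Of 60 pairs of libraries compared, 0 were identical.

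The members and lists were chosen with earlier results of these data known. Every member called in any comparison is given by library. Of each other list, up to 3 called genes with the widest change, at least 1 CPM in 1 group and a locus over 50% of the gene are named, plus all auxin receptors. A gene of the transport list that this rule names is not reported here.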

Additional observations from a re-analysis of the deposited data

Results flagged for a closer look

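In 50 groups of 5 libraries checked for a value far from the others, 2 stood out, and chance flags about 1 group in 20. IAA5 read 0.616 CPM in zeocin mock replicate 3, and the nearest other mock library 0.158 CPM. GH3.1 read 1.4 CPM in zeocin replicate 2, and the nearest other zeocin library 0.93 CPM.

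For 16 genes the response to zeocin and that to UV-C differed by the interaction test (edgeR, adjusted over all genes of the joint fit). As zeocin minus UV-C on the log2 scale, the repressors with a positive difference were IAA29 (3.35), IAA4 (2.15), IAA3 (1.84), IAA13 (1.18), IAA7 (1.12), IAA18 (0.71), IAA11 (0.66) and IAA8 (0.65), and the conjugating enzymes were GH3.6 (1.89) and GH3.5 (0.91). The genes with a negative difference were GH3.1 (-4.79), IAA10 (-2.26), GH3.2 (-2.24), GH3.3 (-2.01), IAA28 (-1.50) and IAA26 (-0.68).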

How the results depend on the processing

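All alternatives were planned. For single genes, 554 values kept direction and side of the threshold under other settings, 7 gained and 3 lost the call and 1 turned sign; with 1 library left out these counts were 737, 16, 22 and 25. Asking for an overlap of 80% of the gene removed genes by construction and left 6 lower after UV-C and 5 with a response higher after zeocin.

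Leaving out single libraries gave 3 to 5 genes higher and 2 to 5 lower after zeocin, 7 to 8 higher and 12 to 13 lower after UV-C, and 9 to 12 and 5 to 7 for the difference between responses. Values near 0 turned sign: with zeocin IAA8 ran from -0.14 to 0.059 and GH3.6 from -0.11 to 0.10, with UV-C IAA18 from -0.0777 to 0.017 and IAA27 from -0.28 to 0.018, and in the difference IAA12 from -0.16 to 0.081 and IAA17 from -0.037 to 0.20. None of these 6 was called; the cause was not tested.

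Upper quartile scaling moved the median of all loci to -0.10 with UV-C and -0.07 with zeocin; of the calls 44.8% instead of 52.1% were then higher with UV-C, and 44.9% instead of 55.6% with zeocin. Without the filter 9 instead of 7 genes were higher with UV-C.

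Replicate numbers did not pair the samples throughout. Deviations of same-numbered libraries correlated at -0.08 to 0.40 with zeocin and -0.26 to 0.13 with UV-C. Zeocin replicates 1 (0.40) and 3 (0.22) and UV-C replicate 3 (0.13) matched their own number best, and the others did not. With the replicate block 4 genes were higher and 5 lower after zeocin, 7 and 12 after UV-C, and 11 and 6 for the difference, and GH3.6 with zeocin read 0.0196. It called IAA29 higher (1.22, adjusted p = 0.012) and IAA27 lower (adjusted p = 0.0283) with zeocin, and IAA1 was not called with UV-C (adjusted p = 0.0738). Of the differences between responses, IAA9 (adjusted p = 0.039) and IAA16 (adjusted p = 0.0343) were called and IAA11 was not (adjusted p = 0.0501, all by edgeR). The 3 libraries of each UV-C group and the few fragments of IAA5 and GH3.1 in their mocks limit the precision.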
